A study of Drosophila melanogaster with 25 samples.

Results

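The axon guidance receptors and ligands described here are 10 Drosophila melanogaster genes, chosen by their FlyBase identifiers from the 16037 gene identifiers of the count tables. They are the ligand sli (FBgn0264089) with the Slit receptors robo (FBgn0005631), lea, also called robo2 (FBgn0002543), and robo3 (FBgn0041097), the Netrin ligands NetA (FBgn0015773) and NetB (FBgn0015774) with the receptor fra (FBgn0011592), Sema-1a (FBgn0011259) with its receptor PlexA (FBgn0025741), and Dscam1 (FBgn0033159). The symbols belong to the rule that chose the genes, since the tables hold identifiers alone. All 10 passed the filter on low counts that left 9961 genes for testing. Of these, NetA passed through BG3 libraries alone, so it had to differ between the lines, and robo3 passed through 2 Su(Hw) libraries of Kc cells alone, so it had to differ there. Lea and NetB passed through BG3 libraries and through the same 2 Kc Su(Hw) libraries.

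The study sequenced RNA that came down with the proteins Su(Hw) and Shep from nuclear extracts, together with the nuclear RNA of the same extracts (input). Su(Hw), suppressor of Hairy-wing, binds DNA through zinc fingers and is part of chromatin insulators, and Shep, alan shepard, is an RNA-binding protein that acts on insulator activity in the nervous system. Both lines are established cultures: Kc, from embryos and with properties of blood cells, and BG3, from the larval central nervous system. No genetic change or treatment is given in the labels for either line. The 8 groups were Kc input (6 libraries), Kc Shep with the antisera Rb5 (3), Rb6 (2) and Gp01 (2), Kc Su(Hw) with the antiserum Gp60 (3), BG3 input (2), BG3 Shep with Rb5 (2) and BG3 Su(Hw) with Gp60 (2). Extracts were precleared on beads with preimmune serum, and poly(A) RNA was selected. Each precipitate was set against input, and no mock precipitation was used here. The labels call the replicates biological and do not name separate cultures, so the p-values measure the spread between these libraries.

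Axon guidance proteins tell a growing axon where to turn. Slit, secreted by midline glia, repels axons that carry Robo receptors, and the Netrins attract axons through Frazzled. Sema-1a acts with Plexin A in repulsion and can itself act as a receptor. Dscam1 is an immunoglobulin superfamily protein whose very many splice forms let neurites of one neuron recognise each other, and it also serves in Netrin guidance and in blood cell immunity. Robo and Slit are used outside the nervous system as well, for instance in muscle and heart.

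The 22 libraries held between 6190633 and 59066733 counts in genes. Levels are given as CPM (counts scaled to library size) after scaling by trimmed means (TMM), whose factors ran from 0.410 in BG3 Su(Hw) 1 to 1.52 in Kc Gp01 2. A fold is therefore relative to the rest of the RNA in each library, and levels of different genes were not compared because no transcript lengths were used. Genes under 0.05 CPM in the inputs of a line together held 740 and 469 CPM of the library total in Kc Su(Hw) 1 and 2, against 74.3 in Kc Su(Hw) 3 and 30.2 to 79.8 in the 6 Kc inputs. The Kc Shep libraries held 117 to 228, above every Kc input. In BG3 cells such genes held 260 in Su(Hw) 1, 122 in Su(Hw) 2, 117 and 136 in Shep Rb5 and 33.0 and 37.3 in the inputs. The inputs of a line chose its genes, which holds the input values low, so precipitates above inputs follow in part from that choice. The markers of blood cells and of the nervous system could not be matched to identifiers, so the line labels were not checked.

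The inputs show which guidance genes the nuclei of each line held. BG3 nuclear RNA had far more of both Netrins, of Sema-1a, sli and lea, and somewhat more PlexA and Dscam1, whereas fra and robo were higher in Kc. By edgeR's quasi-likelihood test with Benjamini-Hochberg adjustment over all genes at 0.05, 7 of the 10 were higher in BG3, among them NetA, which the filter had selected for it, 2 were lower and robo3 was not called. Over all genes tested, 23.9% were higher and 18.7% lower, 2379 against 1863 genes, and with library totals in place of TMM factors the split was 1629 against 2069. In bulk RNA, fewer cells of a type and less RNA per cell cannot be told apart.

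The Netrins separated the lines most widely among the 10 genes. NetA stood at 206 and 132 CPM in the BG3 inputs and between 0 and 0.0636 CPM in the 6 Kc inputs, with a median of 0.0356. The BG3 inputs held 11375 NetA counts and the Kc inputs 7, a ratio per effective depth of 4317 with an exact 95% counting interval of 2095 to 10740. NetB stood at 34.9 and 83.4 CPM in the BG3 inputs and between 0 and 0.246 CPM in the Kc inputs, with a median of 0.0119. The counts were 3734 against 13, a ratio of 763 with an interval of 446 to 1434 (adjusted p = 6.85e-11, edgeR). Neither Netrin's groups overlapped, and 10 of the 13 NetB counts came from Kc input 3. These intervals cover counting error only.

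Fra, the Netrin receptor, ran the other way. Its 6 Kc inputs lay between 15.2 and 52.5 CPM with a median of 34.1, and its BG3 inputs at 4.70 and 7.01 CPM. The log2 fold of BG3 over Kc was −2.64 ± 0.53 (SE; adjusted p = 0.000766, edgeR). Every Kc input was above both BG3 inputs, so the line with the Netrin transcripts was the one with less of this receptor.

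Sli, the Slit ligand, stood at 5.14 and 8.40 CPM in BG3 input and between 0.472 and 0.827 CPM in Kc input, with a median of 0.656. The log2 fold was 3.26 ± 0.31 (adjusted p = 7.46e-08, edgeR) and the groups did not overlap. Robo, its receptor, stood at 3.43 and 6.06 CPM in BG3 input and between 6.35 and 10.5 CPM in Kc input, with a median of 10.1. It was lower in BG3 by a log2 fold of −0.94 ± 0.32 (adjusted p = 0.0227, edgeR), without overlap. The call for robo was lost when only the compared groups (adjusted p = 0.108, edgeR) or only HiSeq libraries (adjusted p = 0.0555) were fitted, and without BG3 input 1, Kc input 4 or Kc Su(Hw) 3.

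Lea, the second Slit receptor, was scarce in both lines. It had 21 and 6 counts in the BG3 inputs, or 0.577 and 0.203 CPM, and 1 count over all 6 Kc inputs, a ratio of 71.7 with a counting interval of 11.8 to 2937 (adjusted p = 1.12e-05, edgeR). Robo3, the third receptor, had 0 counts in both BG3 inputs and 2 in the Kc inputs, both in Kc input 6. Neither line held more than these few robo3 counts, which allow no direction at this depth.

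Sema-1a, the transmembrane semaphorin, stood at 5.44 and 14.8 CPM in BG3 input and between 0.476 and 1.25 CPM in Kc input, with a median of 0.674. The log2 fold was 3.67 ± 0.45 (adjusted p = 2.06e-06, edgeR) and the groups did not overlap. PlexA, the plexin that binds it, stood at 67.6 and 163 CPM in BG3 input and between 26.0 and 70.4 CPM in Kc input, with a median of 33.8. Its log2 fold was 1.49 ± 0.32 (adjusted p = 0.00102, edgeR), although Kc input 6 lay above BG3 input 1. Without BG3 input 2 the PlexA fold was 0.72 and no longer called (adjusted p = 0.114, edgeR).

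Dscam1 stood at 8.93 and 10.6 CPM in BG3 input and between 2.45 and 7.03 CPM in Kc input, with a median of 3.04. The groups did not overlap, and the log2 fold was 1.12 ± 0.33 (adjusted p = 0.0105, edgeR). The call was lost with library totals (adjusted p = 0.095, edgeR), with the compared groups only (0.96, adjusted p = 0.121) and without BG3 input 2 (adjusted p = 0.075). All BG3 libraries belong to 1 sequencing class, the one of Kc inputs 4 and 5, Rb6 1, Gp01 1 and Su(Hw) 3.

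**Figure D1:**
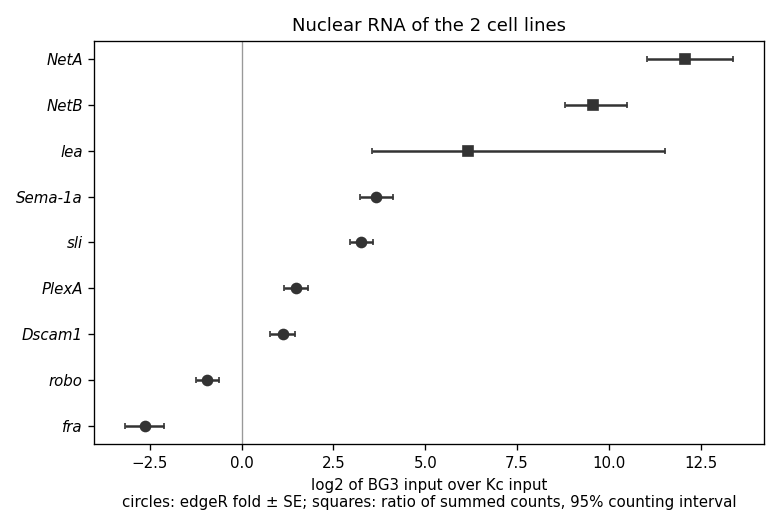
Input of BG3 over input of Kc for 9 of the 10 genes, on the log2 scale. Circles are edgeR folds with their SE, and squares are ratios of summed counts with exact 95% counting intervals for NetA, NetB and lea, whose Kc inputs held 7, 13 and 1 counts. Fra and robo lie below 0 and the other 7 genes above it; robo3, with 0 against 2 counts, is not drawn.

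**Figure D2:**
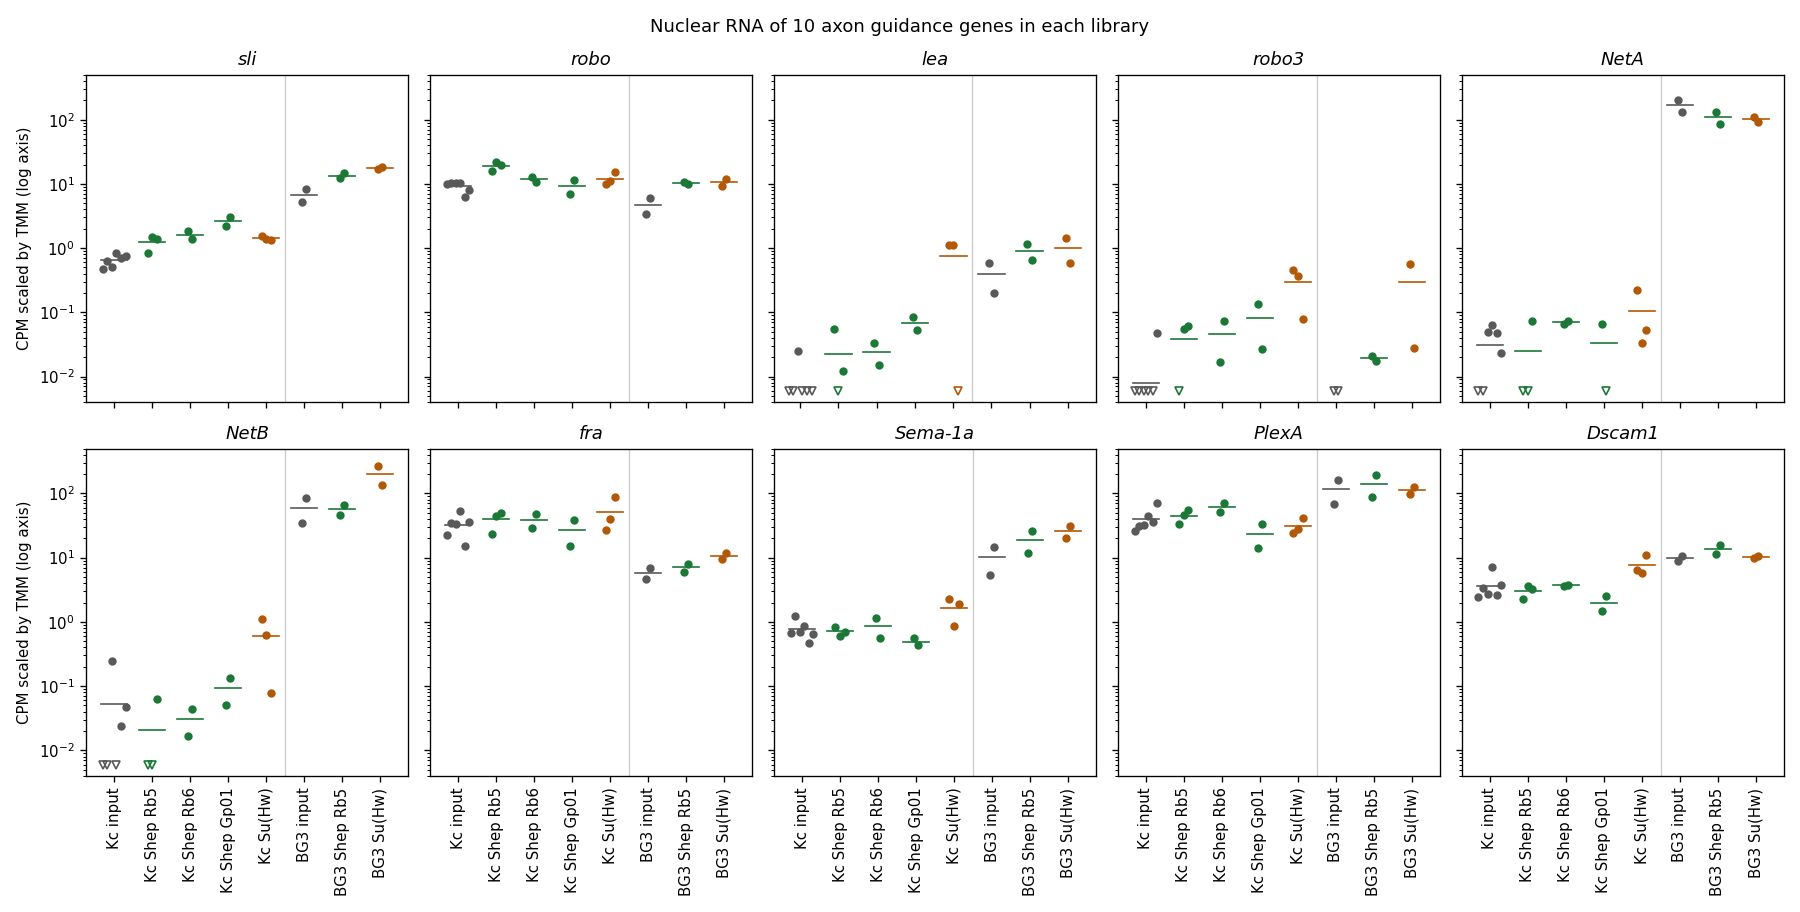
Level of each gene in each of the 22 libraries, in TMM-scaled CPM on a log axis, by group. Grey points are inputs, green Shep and orange Su(Hw) precipitates; short lines are group means, open triangles at the bottom are libraries with 0 counts, and a mean below the axis is not drawn. The Netrins lie near 0 in Kc libraries and between 34.9 and 264 CPM in BG3 libraries, while every sli precipitate library lies above the inputs of its line.

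The precipitates show which of these RNAs came down with each protein relative to input. Sli was higher in 5 of the 6 comparisons with input and missed the threshold in BG3 Rb5. Robo was higher in Rb5 of both lines and in BG3 Su(Hw). NetB was higher with Su(Hw) in both lines, in Kc on few counts and in a call that most alternatives lost. Comparisons within a line share their inputs, so these calls are not independent of each other. How many of all genes tested were called in as many comparisons is not given here, so the pattern is not shown to be particular to these genes.

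Sli stood at 0.831, 1.5 and 1.37 CPM in the Kc Rb5 libraries, at 1.84 and 1.37 CPM in Rb6 and at 2.19 and 3.05 CPM in Gp01. It stood at 1.57, 1.39 and 1.34 CPM in Kc Su(Hw). Each of these 10 precipitate libraries lay above the highest Kc input of 0.827 CPM, Rb5 1 by the least. In BG3 cells sli stood at 12.2 and 14.8 CPM in Rb5 and at 16.9 and 18.5 CPM in Su(Hw), all above the input maximum of 8.40 CPM.

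The sli log2 folds over Kc input were 1.11 ± 0.33 with Rb5 (adjusted p = 0.0164, edgeR), 1.15 ± 0.31 with Rb6 (adjusted p = 0.00882, edgeR), 1.85 ± 0.31 with Gp01 (adjusted p = 0.000579, edgeR) and 1.15 ± 0.30 with Su(Hw) (adjusted p = 0.0113, edgeR). Within single sequencing classes the sli difference was 0.97 and 1.32 for Rb5, 1.23 and 0.81 for Rb6, 1.47 and 1.93 for Gp01 and 0.79, 1.45 and 1.34 for Su(Hw), all on the log2 scale. Of these 4 Kc calls, only that for Gp01 was kept under every alternative and every library left out. With the compared groups only, the Rb5, Rb6 and Su(Hw) calls were lost (adjusted p = 0.0961, 0.0747 and 0.0772, edgeR). Rb5 was also lost without Kc input 1 or 3 or Rb5 2 or 3, and Rb6 without Rb6 1 (fold 0.73, adjusted p = 0.396, edgeR). Su(Hw) was also lost with library totals (0.85, adjusted p = 0.0926), with HiSeq libraries only (0.82, adjusted p = 0.303), without Kc Su(Hw) 1 and 2 and BG3 Su(Hw) 1 (0.84, adjusted p = 0.317), and without Kc input 3 or Su(Hw) 2.

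In BG3 cells the sli fold over input was 1.39 ± 0.33 with Su(Hw) (adjusted p = 0.00512, edgeR) and 1.00 ± 0.33 with Rb5 (adjusted p = 0.0567, edgeR), which was not called. DESeq2 called the Rb5 difference at 0.99 (adjusted p = 0.0189) and limma voom at 1.05 (adjusted p = 0.0111). The Su(Hw) call was lost without BG3 input 1 (fold 1.07, adjusted p = 0.0772, edgeR) and with library totals (0.86, adjusted p = 0.13).

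Robo stood at 15.8, 22.2 and 19.4 CPM in Kc Rb5, all above the 6 inputs, of which the highest was 10.5 CPM. The log2 fold was 1.04 ± 0.26 (adjusted p = 0.00516, edgeR), it was 0.89 in each of 2 sequencing classes, and the call was kept under every alternative and every library left out. The other antisera in Kc gave no robo call. Rb6 stood at 13 and 10.54 CPM, both above the highest input of 10.50 CPM, with a fold of 0.36 ± 0.29 (adjusted p = 0.370, edgeR). Rb5 was not set directly against Rb6 or Gp01. Gp01 stood at 7.08 and 11.7 CPM, inside and above the range of the inputs, with a fold of 0.03 ± 0.31 (adjusted p = 0.969, edgeR). Su(Hw) stood at 9.88, 11.3 and 15.2 CPM, with a fold of 0.41 ± 0.24 (adjusted p = 0.216, edgeR).

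In BG3 cells robo stood at 10.8 and 10.1 CPM in Rb5 and at 9.33 and 11.8 CPM in Su(Hw), all above both inputs. The folds were 1.14 ± 0.34 (adjusted p = 0.0359, edgeR) and 1.17 ± 0.34 (adjusted p = 0.0168, edgeR). Without BG3 input 1, the lower of the 2 inputs, they were 0.79 (adjusted p = 0.324, edgeR) and 0.81 (adjusted p = 0.175, edgeR). The Rb5 call was also lost without either Rb5 library, without the class term, with HiSeq libraries only and with the compared groups only. The Su(Hw) call was also lost without Su(Hw) 2, with library totals (0.67, adjusted p = 0.261, edgeR) and with the compared groups only (adjusted p = 0.0776, edgeR).

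Lea and robo3 were called in Kc on few counts. Lea had 5, 34 and 0 counts in the 3 Kc Su(Hw) libraries, against 1 in the inputs, a ratio of 94.1 with a counting interval of 15.9 to 3812 (adjusted p = 0.00178, edgeR). The counts lay in the 2 libraries in which genes near 0 in input were the highest, and the third held none. With the Shep antisera Rb6 and Gp01 lea was called on 3 and 7 counts (adjusted p = 0.0117 and 0.00258, edgeR), for which the counting intervals of the ratio were 0.332 to 217 and 1.62 to 570. The Rb6 call was kept under 3 of 10 alternatives and the Gp01 call under 6 of 10. Robo3 had 2, 11 and 3 counts in Kc Su(Hw) against 2 in the inputs, a ratio of 19.3 with an interval of 4.54 to 173. Since robo3 passed the filter through this group alone, its call there is a description. That call was kept under 7 of 10 alternatives and in 16 of 22 fits with 1 library left out. In BG3 Su(Hw) robo3 had 6 and 1 counts against 0 in the inputs, at least 3.33-fold higher with a floor of 3 counts over the input group. The exact 95% counting interval of this ratio starts at 2.06, and robo3 was not called (adjusted p = 0.0536, edgeR).

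In BG3 cells NetB was called higher with Su(Hw) and NetA was not, while with Rb5 neither Netrin was called. NetB stood at 264 and 136 CPM in BG3 Su(Hw), above both inputs, and at 46.9 and 66.4 CPM in Rb5, between them. The log2 fold over input was 1.76 ± 0.43 with Su(Hw) (adjusted p = 0.00597, edgeR) and −0.06 ± 0.42 with Rb5 (adjusted p = 0.951, edgeR). NetA stood at 112 and 91.6 CPM in Su(Hw) and at 133 and 84.8 CPM in Rb5, with folds of −0.73 ± 0.33 (adjusted p = 0.106, edgeR) and −0.63 ± 0.33 (adjusted p = 0.225, edgeR), neither called.

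Counted within a library, where scaling plays no part, NetB over NetA was 0.170 and 0.633 in the BG3 inputs, 0.354 and 0.782 in Rb5 and 2.37 and 1.48 in Su(Hw). Both Su(Hw) libraries lay above all 4 other libraries. Each Rb5 library lay above the input of the same number, 0.354 against 0.170 and 0.782 against 0.633. With 2 libraries against 2 no permutation test of this ratio could reach 0.05, so none was made. The NetB call against input was lost without BG3 Su(Hw) 1 (fold 1.2, adjusted p = 0.0906, edgeR), the library with the lowest TMM factor, and without BG3 input 1 (1.26, adjusted p = 0.0754). The call was also lost without the class term, and without Kc Su(Hw) 1 and 2 and BG3 Su(Hw) 1. With library totals the NetB fold was 1.07 and not called (adjusted p = 0.0762, edgeR), and NetA was called lower, at −1.31 (adjusted p = 0.0164, edgeR). In the RefSeq annotation the Netrin genes are neighbours with 1 gene, CG5321, between them.

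**Figure D3:**
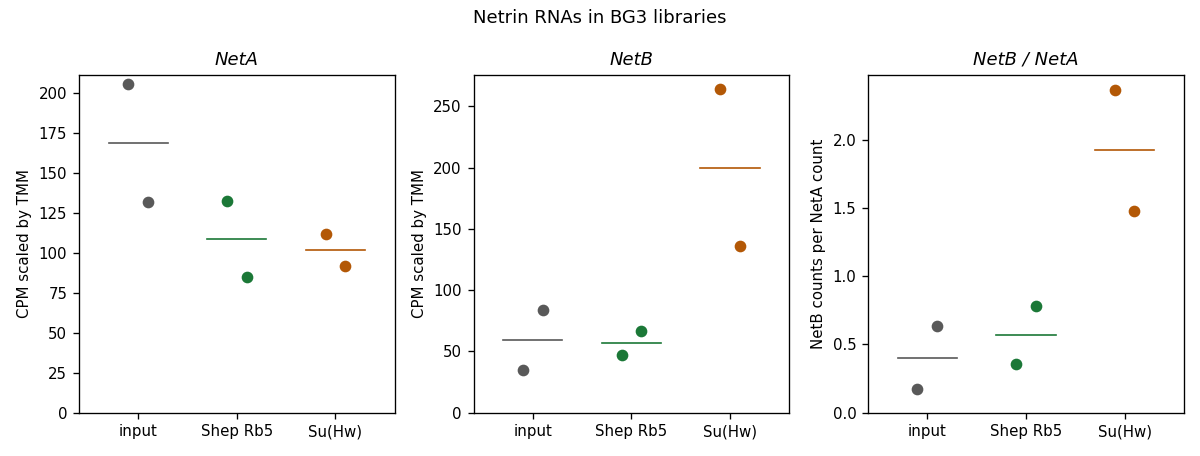
NetA and NetB in the 6 BG3 libraries, as TMM-scaled CPM and as the ratio of NetB to NetA counts, on linear axes that start at 0. Each point is 1 library; grey is input, green Shep Rb5 and orange Su(Hw). The Su(Hw) ratios of 2.37 and 1.48 lie above the other 4, which reach 0.782.

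In Kc cells NetB was also called higher with Su(Hw) (adjusted p = 0.0353, edgeR), with 5, 19 and 3 counts against 13 in the inputs. The ratio was 5.01 with a counting interval of 2.50 to 10.6. This call was kept under 4 of 10 alternatives. It was lost with limma voom, without the class term, with the replicate block and with the compared groups only. HiSeq libraries only, or leaving out Kc Su(Hw) 1 and 2 and BG3 Su(Hw) 1, also lost it. So did leaving out Kc input 1 or 3 or Kc Su(Hw) 1 or 3 singly. Here again the first 2 Su(Hw) libraries, at 1.12 and 0.63 CPM, were above all inputs, and the third, at 0.0791 CPM, was below Kc input 3. NetA had 4 counts in Kc Su(Hw) and was not called. With the Shep antisera neither Netrin passed the test in Kc, where they had between 4 and 9 counts in each group.

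Fra did not pass the test in any precipitate. It varied between replicates of a group in Kc, from 26.7 to 87.9 CPM in Su(Hw), from 23.3 to 49.4 in Rb5, from 28.6 to 47.3 in Rb6 and from 15.1 to 38.3 in Gp01. In BG3 Su(Hw) it stood at 9.62 and 11.8 CPM, above both inputs, with a fold of 0.88 ± 0.54 (adjusted p = 0.235, edgeR). The 95% intervals of the fra folds reached from −0.01 to 1.43 in Kc Su(Hw) and from −0.17 to 1.93 in BG3 Su(Hw). Some alternatives did call fra against input. It was higher in BG3 Su(Hw) with the replicate block (0.88, adjusted p = 0.0317, edgeR) and in Kc Su(Hw) without the filter on low counts (0.64, adjusted p = 0.0298). It was higher in Kc Rb5 with library totals (1.19, adjusted p = 0.0406) and lower in Gp01 without the filter (−0.87, adjusted p = 0.0356).

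Sema-1a was higher in BG3 Su(Hw), at 20 and 31 CPM against inputs of 5.44 and 14.8, with a log2 fold of 1.34 ± 0.46 (adjusted p = 0.0377, edgeR). This call was lost without BG3 input 1 (fold 0.79, adjusted p = 0.298, edgeR) or Su(Hw) 2, and under 5 of the 10 other alternatives. In BG3 Rb5 it stood at 11.6 and 26.3 CPM, overlapping the inputs, with a fold of 0.91 ± 0.46 (adjusted p = 0.210, edgeR). Kc Su(Hw) gave 2.24, 0.862 and 1.87 CPM, the second inside the range of the inputs, and a fold of 1.03 ± 0.41 (adjusted p = 0.0737, edgeR). With the 3 Shep antisera in Kc the fold lay between −0.45 and 0.30 and was not called.

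PlexA was lower with the Shep antiserum Gp01. It stood at 14.3 and 33.1 CPM against Kc inputs of 26.0 to 70.4, so that the second library lay within their range, and the log2 fold was −1.31 ± 0.35 (adjusted p = 0.0132, edgeR). Within sequencing classes the difference was −1.47 and −1.09. The call was lost without Gp01 1 (fold −1.0, adjusted p = 0.296, edgeR) or Kc input 6, with library totals (−0.71, adjusted p = 0.19) and without the class term (−0.76, adjusted p = 0.242). With Rb6, at 51.4 and 70.7 CPM, the fold was 0.16 ± 0.32 (adjusted p = 0.740, edgeR), and 1.17 when the fit blocked on replicate number instead of class (adjusted p = 0.00186). With Rb5 it was 0.60 ± 0.29 (adjusted p = 0.121, edgeR), and with Su(Hw) −0.14 ± 0.27 in Kc and −0.04 ± 0.36 in BG3 (adjusted p = 0.739 and 0.949, edgeR).

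Dscam1 moved in opposite directions in 2 Kc precipitates. With Su(Hw) it stood at 6.51, 5.77 and 11.2 CPM, above 5 of the 6 inputs, and the log2 fold was 1.22 ± 0.28 (adjusted p = 0.00552, edgeR). Within sequencing classes it was 1.35, 1.17 and 1.07, and the call was lost without Su(Hw) 3 (1.11, adjusted p = 0.0606, edgeR). The call was also lost in the fits that leave only Kc Su(Hw) 3 in that group. Their folds were 1.33 with HiSeq libraries only and 1.36 without Kc Su(Hw) 1 and 2 and BG3 Su(Hw) 1. With Gp01 Dscam1 stood at 1.45 and 2.53 CPM, the second just inside the range of the inputs, with a fold of −1.24 ± 0.37 (adjusted p = 0.0251, edgeR). That call was lost without Gp01 1 (−0.70, adjusted p = 0.51, edgeR) and without Kc input 4, the input with the most Dscam1 (−0.89, adjusted p = 0.0667). It was also lost with library totals (−0.63, adjusted p = 0.27), without the class term (−0.90, adjusted p = 0.124), with the replicate block (−0.40, adjusted p = 0.434), with HiSeq libraries only (adjusted p = 0.0548) and with the compared groups only (adjusted p = 0.131). Neither Rb5 nor Rb6 gave a Dscam1 call in Kc, and in BG3 Su(Hw), at 10 and 10.7 CPM, the fold was 0.08 ± 0.37 (adjusted p = 0.894, edgeR).

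**Figure D4:**
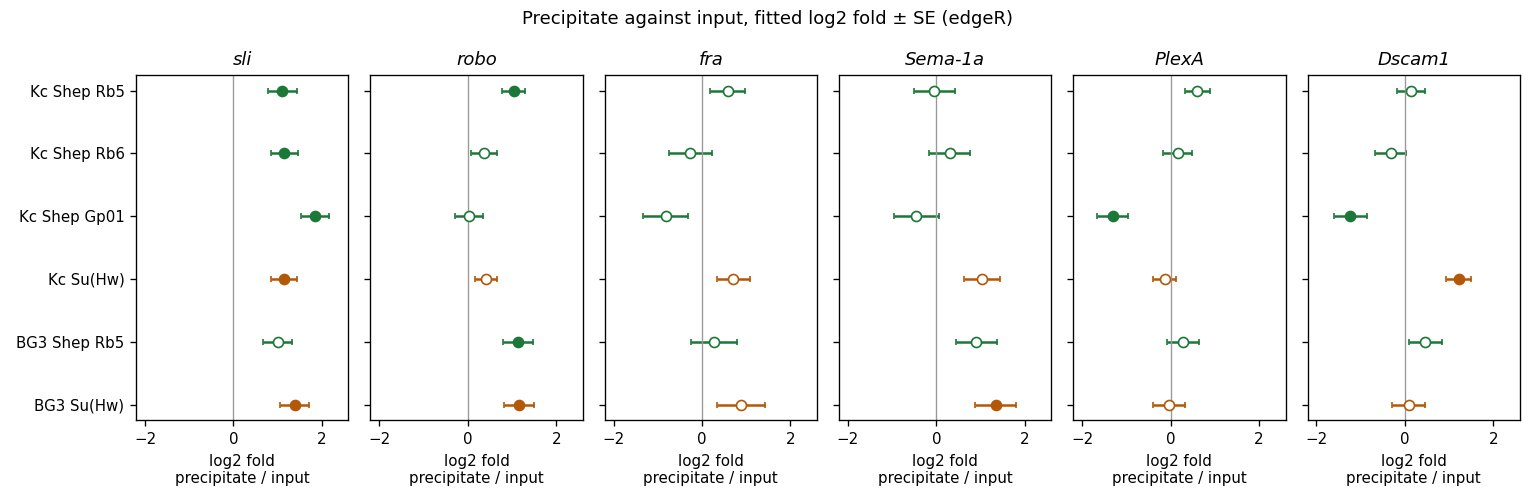
Log2 folds of each precipitate over input of its own line for sli, robo, fra, Sema-1a, PlexA and Dscam1, from edgeR, with SE bars. Filled points passed the adjusted threshold of 0.05 and open points did not. The sli folds lie between 1.00 and 1.85 in all 6 comparisons, and PlexA and Dscam1 fall below −1 with Gp01 alone.

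Counted over the 10 genes, Kc Rb5 had 2 higher and none lower, where 14.9% of all genes tested were higher. Rb6 had 2 higher, with 14.0% of all genes, and Gp01 had 2 higher and 2 lower, with 9.92% and 10.2%. Kc Su(Hw) had 5 higher, with 13.0%, of which lea, robo3 and NetB were at 39, 16 and 27 counts and robo3 had to differ by the filter. BG3 Rb5 had 1 higher, with 6.22%, and BG3 Su(Hw) had 4 higher, with 14.5%. The balance of directions depended on the scaling. Kc Rb5 had 1488 genes higher and 1480 lower, and 3303 and 251 with library totals. The same change took Rb6 from 1395 and 1580 to 2050 and 545, Gp01 from 988 and 1021 to 2853 and 242, and BG3 Rb5 from 620 and 474 to 1405 and 54. It took Kc Su(Hw) the other way, from 1296 and 1116 to 583 and 1687, and BG3 Su(Hw) from 1447 and 1293 to 509 and 2055. The median log2 fold over the 9 genes with more than 20 counts in each group was 1.17 in BG3 Su(Hw) and 0.46 in BG3 Rb5, beside 0.18 and 0.17 over all genes. Over the 6 such genes in Kc it was 0.87 with Su(Hw), 0.59 with Rb5, 0.23 with Rb6 and −0.64 with Gp01, beside 0.11, 0.08, 0.19 and 0.09 over all genes. The medians over all genes cover every gene tested, without that limit on counts, so the 2 kinds of median are not fully alike.

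Set directly against Su(Hw), Rb5 had less NetB in BG3 cells, by a log2 fold of −1.82 ± 0.43 (adjusted p = 0.00829, edgeR). This was 1 of the 10 genes, where 6.60% of all genes were lower, 770 higher against 657 lower, and 4268 against 256 with library totals. The call was lost without BG3 Rb5 1 or BG3 Su(Hw) 1, the latter at −1.26 (adjusted p = 0.138, edgeR), and with library totals it was −0.62 (adjusted p = 0.254). Sli and robo did not differ past the threshold between Rb5 and Su(Hw) in BG3 cells, with 95% intervals of −1.03 to 0.25 and −0.68 to 0.62.

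In Kc cells 3 of the 10 genes were lower with Rb5 than with Su(Hw), where 13.9% of all genes were lower, 1263 higher against 1382 lower, and 4262 against 396 with library totals. They were Dscam1, at −1.08 ± 0.34 (adjusted p = 0.0265, edgeR), lea, with 2 against 39 counts, and NetB, with 5 against 27 counts (adjusted p = 0.000534 and 0.00266, edgeR). With library totals, and with the compared groups only, lea and NetB were lower and robo and PlexA higher. The Dscam1 fold was −0.15 with library totals (adjusted p = 0.777, edgeR), and its call was lost when any 1 of Rb5 1, Rb5 3 and the 3 Su(Hw) libraries was left out. Without Kc Su(Hw) 1 and 2 and BG3 Su(Hw) 1, none of the 3 was called. Robo, called over input with Rb5 and not with Su(Hw), differed between them by 0.62 ± 0.30 (adjusted p = 0.127, edgeR), which was not called. It was called higher with Rb5 with the compared groups only (0.93, adjusted p = 0.0305), with library totals (1.55, adjusted p = 0.00231) and without Kc Su(Hw) 3 (0.86, adjusted p = 0.0469).

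The Shep antisera Rb6 and Gp01, run in the same sequencing classes, differed in PlexA. It was higher with Rb6 by a log2 fold of 1.47 ± 0.37 (adjusted p = 0.00577, edgeR), 1 of the 10 genes where 13.3% of all genes were higher, 1329 against 1484 lower, and 690 against 1508 with library totals. The Rb6 libraries at 51.4 and 70.7 CPM lay above both Gp01 libraries. The call was lost without Gp01 1 (1.19, adjusted p = 0.129, edgeR) or Rb6 1 (1.22, adjusted p = 0.106). Dscam1 differed by 0.92 ± 0.39 (adjusted p = 0.0857, edgeR) and sli by −0.69 ± 0.34 (adjusted p = 0.141, edgeR), neither called.

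Whether enrichment over input differed between the lines was tested as an interaction. For Rb5 none of the 10 genes passed, none had an unadjusted p under 0.05, and DESeq2 and limma voom called 0, where 0.0904% of all genes were called in either direction. For Su(Hw) none passed by edgeR, 2 had an unadjusted p under 0.05, and DESeq2 and limma voom again called 0, where 2.59% of all genes were called. The sli difference, BG3 minus Kc, was 0.24 ± 0.46 for Su(Hw) and −0.11 ± 0.45 for Rb5, with 95% intervals of −0.66 to 1.13 and −0.99 to 0.78. For Dscam1 with Su(Hw), called in Kc and not in BG3, it was −1.13 ± 0.47 (adjusted p = 0.238, edgeR).

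Across the 8 group means NetA and NetB ran together, with a Pearson correlation of 0.98, as did NetB and Sema-1a at 0.98, whereas NetA and fra stood at −0.95. Sli stood at 0.94 with NetB, and robo reached no more than 0.65 with any of the other genes, its highest being with fra. These values describe 8 points that share the difference between the lines. Over all genes tested, the identifier most like NetA was FBgn0052182 at 0.999, that most like sli FBgn0030508 at 0.991 and that most like robo FBgn0051195 at 0.967, none of which is paired with a symbol here.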

How the data were processed

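Gene counts were used as deposited by the authors, 1 file per sample, per the labels. Per the submitters' processing notes, cutadapt 1.2.1, TopHat2, Bowtie2, HTSeq and DESeq were used with build dm3. For the annotation and the strand setting, the sources used here give no value. RefSeq lists overlapping genes for sli, lea, NetB, fra, Sema-1a and Dscam1, whose reads could not be told apart without strand. Of 25 samples, 3 had files identical to another and were counted once, leaving 22 libraries. The 5 special lines (reads assigned to no gene), 50.2% to 91.2% of the sum of all lines in a file, were left out.

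Genes were kept with edgeR's filterByExpr (minimum count 10, about 0.235 CPM, minimum total 15), leaving 9961. Levels are CPM with TMM factors. The test was edgeR 4.0.16 (robust quasi-likelihood, R 4.3.3) with 1 mean per group and the sequencing class (4 classes by machine and quality encoding) as covariate, over all libraries, Benjamini-Hochberg at 0.05, for 12 comparisons. It was tried on simulated data for Kc Rb5 against input only, with the changes placed in genes of higher counts. Changes in genes with few counts and the BG3 comparisons were not tried. SEs were derived from the F statistic. For genes with few counts, ratios of summed counts have exact 95% intervals, which cover counting error only, and a floor of 3 counts. DESeq2 1.42.0, limma voom 3.58.1 and other settings were alternatives.

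The members and lists were chosen with earlier results of these data known. All 10 members are named, with the genes of highest Pearson correlation over 8 group means. Of 16037 identifiers 172 (1.07%) had a symbol in the RefSeq table, and 0 of 98 symbols in 5 pathway and marker lists matched, so the lists were not analysed here. Same-numbered samples deviated together in all 3 pairs of Kc Rb5 and input (correlations 0.490, 0.306 and 0.309). Each of these pairs also shared its sequencing class, so pairing and class cannot be told apart in these correlations. The replicate block changed no call of these genes for Kc Rb5 against input. The correlation was 0.637 for BG3 Rb5 and input and 0.644 for Rb6 and Gp01, whose pairs also shared their class. For Kc Su(Hw) and input it was −0.0751, 0.0435 and −0.348. In other comparisons the block removed calls for lea, PlexA and Dscam1 with Gp01 and lea with Rb6. It also removed robo3 and NetB with Kc Su(Hw), and NetB between Rb5 and Su(Hw) in both lines. Calls it added included sli in BG3 Rb5, fra in BG3 Su(Hw) and PlexA in Rb6.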

Additional observations from a re-analysis of the deposited data

Results flagged for a closer look

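These 4 values stood far from the rest of the 6 Kc inputs by Dixon's criterion, which chance meets in about 1 in 20 groups of continuous values. Dscam1 stood at 7.03 CPM in Kc input 4, while the other 5 inputs lay between 2.45 and 3.74 CPM. NetB stood at 0.246 CPM (10 counts) in Kc input 3, where the other inputs had 0 to 2 counts. Lea stood at 0.0246 CPM in Kc input 3, its single count, and robo3 at 0.0473 CPM in Kc input 6, its 2 counts. The other inputs held 0 counts of lea and of robo3. With a single library above 0 the criterion is always met, so for lea and robo3 that rate does not apply.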

How the results depend on the processing

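Of 32 calls of single genes, 8 were kept under every alternative and with every library left out: BG3 against Kc input for fra, lea, NetA, NetB, Sema-1a and sli, sli with Gp01 and robo with Kc Rb5. NetA passed the filter through BG3 libraries alone, so its call is a description. The cause of the changes below was not tested. Library totals moved the median fold of all genes by between −0.51 (BG3 Su(Hw)) and 0.61 (Kc Rb5) against input and by 1.01 for BG3 Rb5 against Su(Hw); this setting was chosen after seeing the data. No paired design is given in the labels; the replicate block took the place of the class. For BG3 against Kc input it was not run, since each line lies within its own blocks. Depth limits lea, robo3 and the Netrins in Kc.

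The number of the 10 genes called in BG3 against Kc input was 9, and between 7 and 9 with 1 library left out. Kc Rb5 gave 2 calls, 4 with library totals, 1 with compared groups only and between 1 and 2 with 1 library left out. Rb6 gave 2, 1 with DESeq2, voom, no class term, HiSeq libraries only or 3 Su(Hw) libraries left out (Kc 1 and 2, BG3 1), 0 with compared groups only and between 0 and 2 by library. Gp01 gave 4, 1 without the class or with the replicate block, 2 with HiSeq or compared groups only and between 1 and 5 by library. Kc Su(Hw) gave 5, 3 with the replicate block or compared groups only, 0 with HiSeq only or 3 libraries left out and between 2 and 6 by library. BG3 Rb5 gave 1, 2 with library totals, DESeq2, voom or the replicate block, 0 without the class, with HiSeq or compared groups only and between 0 and 3 by library. BG3 Su(Hw) gave 4 (all higher), with library totals none of these and 1 lower (NetA), 2 with 3 libraries left out or compared groups only and between 0 and 5 by library. Kc Rb5 against Su(Hw) gave 3 (lower), 4 with library totals or compared groups only (2 lower, 2 higher: robo and PlexA), 0 with 3 libraries left out and between 1 and 4 by library. BG3 Rb5 against Su(Hw) gave 1 (lower), 3 with library totals (all higher: Dscam1, NetA and PlexA), 0 without the class, with the replicate block or with 3 libraries left out and between 0 and 2 by library. Rb6 against Gp01 gave 1, 0 with library totals or no class, 2 with the replicate block, 4 with compared groups only and between 0 and 2 by library. The interaction for Su(Hw) gave 0, and 1 with no filter (lea, adjusted p = 0.0487, edgeR).

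Lea reversed on its few counts, to 0.362 for Kc Rb5 against Su(Hw) and −0.246 for Kc Su(Hw) with 3 libraries left out, to −0.251 for Kc Su(Hw) with HiSeq only and to −1.08 for Rb6 with the replicate block.

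Counts of all genes called moved by over 1.5 times under these settings. BG3 Rb5 against Su(Hw) went from 1427 to 4524 with library totals, 903 without the class, 411 with 3 libraries left out and 391 with compared groups only. BG3 Rb5 went from 1094 to 1775 with DESeq2, 304 without the class and 0 with compared groups only. BG3 Su(Hw) went from 2740 to 1783, 1304 and 1097 without the class, with 3 left out and with compared groups only. Gp01 went from 2009 to 3095 with library totals, and Rb6 against Gp01 from 2813 to 4771 with compared groups only. Kc Rb5 against Su(Hw) went from 2645 to 4658 with library totals, 1665 without the class and 356 with 3 left out. Kc Su(Hw) went from 2412 to 1434 with the replicate block, 146 with HiSeq only and 258 with 3 left out. The interactions went from 9 to between 0 and 125 (Rb5) and from 258 to between 27 and 588 (Su(Hw)). Single libraries moved them too. BG3 Rb5 fell to 100, 234 and 408 without BG3 input 1, Rb5 1 and Rb5 2, and BG3 Su(Hw) to 1585 and 1419 without BG3 input 1 and Su(Hw) 1. BG3 Rb5 against Su(Hw) fell to 476 and 430 without Rb5 2 and Su(Hw) 1. Kc Rb5 fell from 2968 to 1467 without Rb5 3, Rb6 from 2975 to 412 and 1899 without Rb6 1 and 2, and Gp01 to 1072, 250 and 795 without Kc input 6, Gp01 1 and Gp01 2. Kc Su(Hw) fell to 1237, 1176 and 1198 without Kc input 3, Su(Hw) 1 and Su(Hw) 2. Kc Rb5 against Su(Hw) fell to 1192, 1495 and 1384 without Rb5 3, Su(Hw) 1 and Su(Hw) 2, and Rb6 against Gp01 to 1298, 1653 and 1060 without Gp01 1, Gp01 2 and Rb6 1. The interactions ranged from 0 to 10 (Rb5) and from 52 to 437 (Su(Hw)) by library.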
